A study of Homo sapiens with 8 samples.

Results

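The response to a bromodomain and extraterminal (BET) inhibitor was described gene by gene in GFP control cells of 22Rv1, an established castration-resistant human prostate cancer line. The genes described were those whose mean over all 8 libraries of the series reached 10 normalized counts, a rule that uses no difference between groups, and 17876 of 57603 genes in the table met it. A normalized count is a gene's reads divided by 1 size factor for its library. GFP-ABBV-075 cells received 25 nM ABBV-075 for 24 h and GFP-DMSO cells the solvent, with 2 libraries in each group. The cells of both groups carry a GFP transgene driven by the murine stem cell virus promoter, which stood as the control for a line that carries HNF4G instead. That HNF4G line received the same agents (HNF4G-DMSO and HNF4G-ABBV-075, 2 libraries each), and its 4 libraries enter here through the estimate of the spread and for 1 comparison at the end. Nothing in the labels tells separate cultures from repeat libraries of 1 culture, so the p-values measure only the spread between libraries, which may be technical.

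The BET proteins, BRD2 and BRD3 among them, read acetylated lysines on histones through paired bromodomains and bring the kinase complex P-TEFb (CDK9 with a cyclin T) to promoters and enhancers, where it releases paused RNA polymerase II into elongation. ABBV-075 (mivebresib) occupies these bromodomains. HEXIM1, with the 7SK RNA, holds P-TEFb inactive, and its own transcription is a widely used readout of BET inhibition.

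The 4 libraries compared held 36926984 and 35086425 reads in GFP-DMSO and 32877590 and 31508275 in GFP-ABBV-075. Mitochondrially encoded transcripts took 3.01% and 1.90% of the reads under DMSO and 3.43% and 3.49% under ABBV-075. Summed over 11 prostate luminal markers, the libraries held 144484 and 145439 normalized counts under DMSO and 136337 and 137395 under ABBV-075, and 7 of 10 immune and endothelial markers stayed under 10 in all 4 libraries. The summed level of 7 stromal markers was 1620 and 1590 under DMSO and 416.5 and 430.2 under ABBV-075, most of it LUM, a matrix proteoglycan gene (1283 and 1263, then 216 and 216), and what part this has in other results was not tested. Of the 8 libraries, HNF4G-DMSO number 2 and HNF4G-ABBV-075 number 1 stood apart by the mean GC content of their reads, 46.3% in both against 47.4% to 47.9% in the others, and they enter the estimate of the spread. Because the libraries are bulk RNA, fewer cells of a kind and less RNA per cell cannot be told apart.

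ABBV-075 moved genes of nearly every class that was examined, with more genes lower than higher and with deeper falls than rises. Of 17876 genes, 2534 (14.2%) rose and 3432 (19.2%) fell with ABBV-075, 5966 (33.4%) in all (limma on log2 of the normalized count plus 1, Benjamini-Hochberg adjusted p under 0.05), and 11910 were not called. The median log2 change was 0.75 among the genes called higher and -0.99 among those called lower. By 1 log2 unit or more, 820 genes (4.59%) rose and 1705 (9.54%) fell. By 2 units or more the counts were 154 and 496, and by 3 or more 26 and 126. Over all genes the median change was -0.007, with the middle 50% between -0.42 and 0.33. The genes called lower took 17.8% and 18.0% of all normalized counts in the DMSO libraries and 11.1% and 11.1% in the ABBV-075 libraries, whereas those called higher went from 11.8% and 11.9% to 18.0% and 18.0%. Both ABBV-075 libraries lay above both DMSO libraries for 38.4% of the genes and below both for 40.6%. The number of calls rests on all 4 libraries: without GFP-DMSO number 1 or 2 it was 3058 or 3067, without GFP-ABBV-075 number 1 or 2 it was 3024 or 2915, and fitted on these 4 libraries alone it was 10750. Without the 2 HNF4G libraries of low GC content 10737 genes were called, 2533 of the 2534 higher and 3426 of the 3432 lower ones among them. Through every 1 of these 4 omissions, 813 of the higher and 1645 of the lower genes kept their call.

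**Figure D1:**
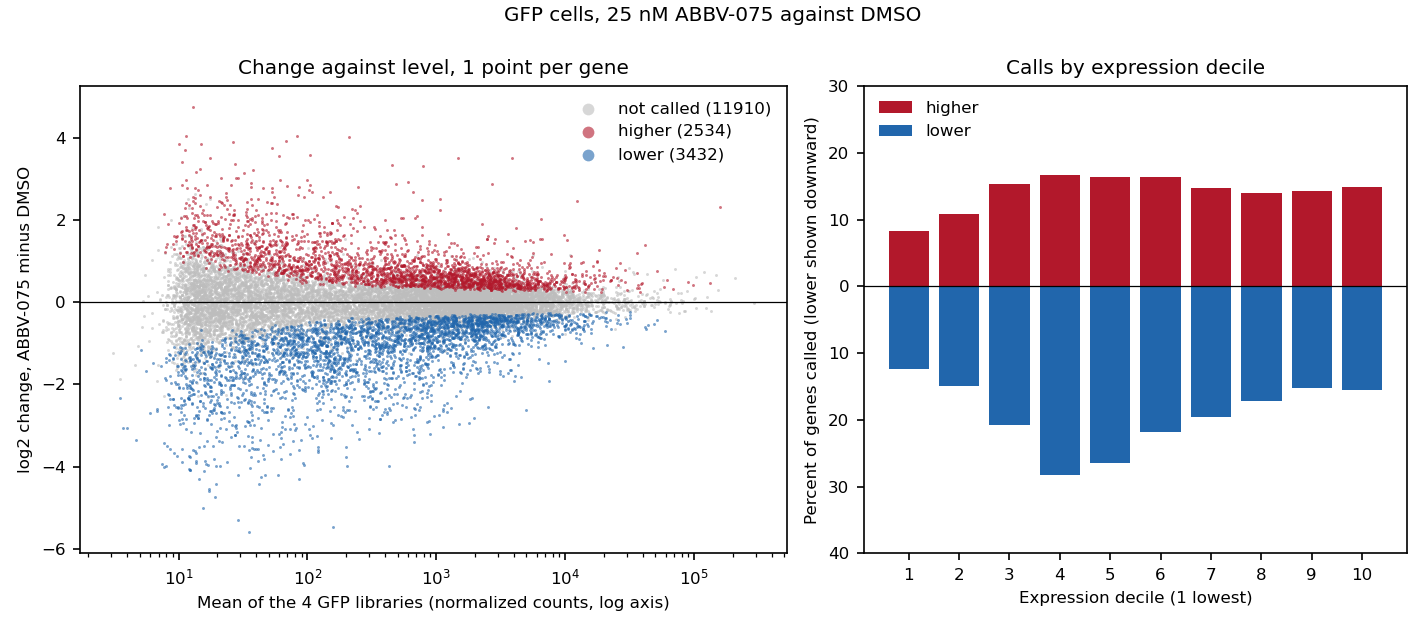
Left, log2 change with ABBV-075 (vertical axis) against the mean normalized count of the 4 GFP libraries (horizontal log axis), 1 point per gene, red for higher, blue for lower and grey for not called. Right, percent of the genes of each expression decile called higher (upward) or lower (downward). Lower calls peak in the fourth decile, at 28.3%, and large changes thin out towards abundant genes.

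The balance between rises and falls differed with the abundance of the transcript. The genes were ordered by their mean over the 8 libraries and split into 10 groups of equal size. In the fourth decile, with means between 84.4 and 207.2 normalized counts, 28.3% of the genes were lower and 16.6% higher, and the median log2 change was -0.13. In the tenth decile, above 4423, the shares were 15.5% lower and 14.8% higher, with a median of 0.028. Fitted on the 4 GFP libraries alone, the share of lower genes was highest in the fifth decile (37.9%, against 37.0% in the fourth), and in the tenth more genes were higher (39.8%) than lower (33.7%). Counted without regard to the test, changes of 1 log2 unit or more either way made up 31.3% of the first decile, 26.9% of the fourth, 18.8% of the fifth and 2.0% of the tenth. The median standard error fell from 0.43 in the first decile to 0.11 in the tenth, so the smaller share of calls in the first (8.3% higher, 12.4% lower) comes with a coarser measurement. A gene that is low in one group can reach the minimum of 10 only through the other, which bears on the lowest deciles.

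Classes of transcript differed as well, against 14.2% higher and 19.2% lower over all genes. Among 13667 protein-coding genes 14.5% were higher and 21.7% lower, whereas among 2121 long non-coding RNA genes 402 were higher and 313 lower (14.8%), with a median log2 change of 0.16. Of the 1884 pseudogenes 6.3% were higher and 7.1% lower. Divergent transcripts, non-coding RNAs that start near a coding gene's promoter and run the other way, leaned upward most, with 65 of 266 higher and 22 lower (31 to 41 and 8 to 11 with any 1 of the 4 GFP libraries left out) and a median of 0.32. Of 489 antisense RNAs 105 rose and 93 fell (41 to 53 and 38 to 49 with any 1 left out), and of 235 intergenic LINC RNAs 42 rose and 55 fell (20 to 27 and 30 to 38). Whether the counting used strand is not given in the sources used here, so reads of a divergent or antisense RNA and of its partner gene may be mixed. Host genes of small nucleolar RNAs and microRNAs went down more often than up, with 16 of 49 lower and 4 higher (8 to 11 and 1 to 3 with any 1 left out). SNHG1, a snoRNA host, changed by -0.45 ± 0.10, a call lost with any 1 GFP library left out, while GAS5, also a snoRNA host, stood at 10759 and 11045 under DMSO and 10772 and 11540.5 under ABBV-075 (0.03 ± 0.09, not called). By gene length the shortest quartile of protein-coding genes had 13.2% higher and 19.7% lower, and the longest 15.0% and 24.3%, but fitted on the 4 GFP libraries alone the shares were 31.3% and 36.0% in the shortest and 29.9% and 36.0% in the longest. By the GC content of the transcript, the richest quartile had fewer calls (8.8% higher, 18.8% lower) and a median standard error of 0.27 against 0.14 in the poorest. In the fit of the 4 GFP libraries that quartile had 30.3% higher and 38.8% lower, against 35.8% and 31.3% in the poorest, so which quartile has fewer calls depends on the libraries that set the spread.

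The largest single rises were those of genes of unrelated kinds. ADARB1, which encodes an adenosine deaminase that edits RNA, stood at 597 and 701 normalized counts under DMSO and at 4838 and 4678 under ABBV-075. Its log2 change was 2.88 ± 0.11 (adjusted p = 1.16e-05), in which the number after ± is the standard error, as in all log2 changes below. PEG10, an imprinted gene derived from a retrotransposon, went from 50498 and 54758 to 268704 and 256741, a log2 change of 2.32 ± 0.10 (adjusted p = 1.31e-05). In both ABBV-075 libraries PEG10 was the transcript of rank 2, with 0.742% and 0.707% of all normalized counts, whereas under DMSO it ranked 54 and 40, with 0.141% and 0.155%. The largest rise among coding genes with a mean of at least 100 was that of IQCN (98.7 and 66.7, then 859 and 799, 3.34 ± 0.20), followed by EFR3B (2.93 ± 0.17), whose product anchors a lipid kinase at the plasma membrane. TPPP, a microtubule-stabilizing protein (2.68 ± 0.20), the acyl-CoA synthetase ACSBG1 (2.68 ± 0.17), the muscle kinase ALPK3 (2.52 ± 0.13), TEX14, known from germ cell bridges (2.55 ± 0.19), the poly(A)-binding protein gene PABPC5 (2.32 ± 0.18) and the endophilin SH3GL2 (2.18 ± 0.16) rose by more than 2 log2 units too. MCRIP1 (2.49 ± 0.52) and DNASE1L2 (2.25 ± 0.56) had wider errors, and their calls were lost, MCRIP1 without GFP-DMSO number 1 or 2 or GFP-ABBV-075 number 2, and DNASE1L2 with any 1 of the 4 libraries left out.

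The largest falls took transcripts of middling abundance to low levels. CYP2C8, a drug- and arachidonate-oxidizing cytochrome P450, stood at 168 and 161 normalized counts under DMSO and at 6.61 and 8.07 under ABBV-075 (-4.32 ± 0.17, adjusted p = 1.16e-05). TNS3, which encodes a focal adhesion protein of the tensin family, went from 786 and 830.4 to 58.4 and 42.7 (-3.99 ± 0.17). The libraries of the 2 groups lay far apart for both genes. HABP2, a plasma serine protease (-4.21 ± 0.30), the zinc finger gene ZNF532 (-3.99 ± 0.18), the glucuronosyltransferase UGT2B10 (-3.96 ± 0.30) and BCAT1, the cytosolic branched-chain aminotransferase (-3.78 ± 0.20), fell nearly as far. PHEX, an endopeptidase of phosphate balance (-3.70 ± 0.33), HPDL (-3.64 ± 0.37), PRTFDC1 (-3.60 ± 0.31), the gastrin receptor CCKBR (-3.53 ± 0.37), the RAS-like GTPase RERG (-3.53 ± 0.20) and the chloride and bicarbonate exchanger SLC26A3 (-3.45 ± 0.25) completed the 12 largest falls.

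**Figure D2:**
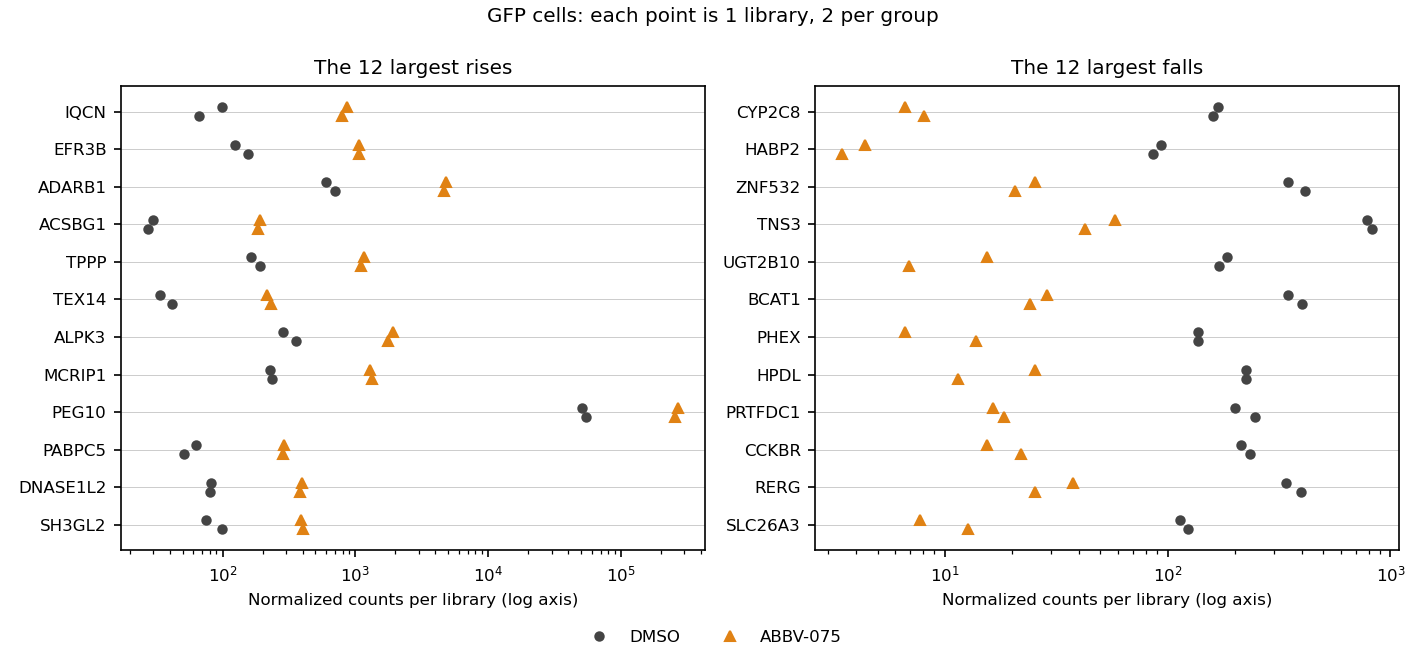
Normalized counts (log axis) of the 12 largest rises and the 12 largest falls among called coding genes with a mean of at least 100, 1 point per library, circles for DMSO and triangles for ABBV-075. Genes were chosen among those whose groups do not overlap, and PEG10 lies furthest to the right.

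Nearly complete loss of a transcript was more common than its appearance. In 40 genes the DMSO mean was at least 50 normalized counts and both ABBV-075 libraries were under 10, and in 8 genes the reverse held. These counts were taken without a test, and 1 read was worth between 0.968 and 1.15 normalized counts. Among the 40 were secreted and immune-related genes, such as the cytokine LIF (78.4 and 82.8, then 3.31 and 2.31) and the chemokine CXCL13 (61.9 and 75.8, then 6.61 and 4.61). MLKL, the executioner of necroptosis, went from 60.0 and 60.6 to 3.31 and 5.77, and ANK1, the erythroid ankyrin, from 110.3 and 123 to 7.71 and 6.92. Among the 8 that appeared was TF, which encodes transferrin (6.77 and 9.09, then 71.6 and 58.8). CYS1, which encodes the ciliary protein cystin, went from 1.94 and 3.03 to 51.8 and 49.6. These examples were chosen after their values were seen.

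The most abundant genes that were called moved by less than 1 log2 unit, except PEG10. HSP90B1, the endoplasmic reticulum form of HSP90, went from 111695 and 109807 to 156023 and 151097 (0.47 ± 0.10), and HSPA5, the chaperone BiP, from 63824 and 58728 to 76049 and 77389.7 (0.33 ± 0.09). CCND1, cyclin D1, rose from 71474 and 77483 to 107788 and 102466 (0.50 ± 0.07, adjusted p = 0.00134). Also higher were TMBIM6 (0.41 ± 0.08), the chromatin proteins HMGN2 (0.76 ± 0.07) and HMGB2 (0.38 ± 0.08) and the peptide hormone APLN (0.54 ± 0.08). On the falling side, HNRNPA1, a splicing factor, went from 73571 and 72619 to 45449.7 and 45217 (-0.69 ± 0.09, adjusted p = 9.68e-04). LDHB, a lactate dehydrogenase subunit (-0.52 ± 0.10), NPM1 and NCL, abundant proteins of the nucleolus (-0.56 ± 0.10 and -0.60 ± 0.08), TUBB, a beta-tubulin (-0.65 ± 0.08), MCM7, a subunit of the replicative helicase (-0.38 ± 0.10), ALDH3A2 (-0.44 ± 0.11) and ZBTB10 (-0.42 ± 0.13) fell as well. For each of these 16 genes the libraries of the groups did not overlap, as for 38.4% of all genes upward and 40.6% downward. HMGN2, HNRNPA1, NPM1 and TUBB have processed pseudogenes, and their counts are uncertain where the counting split reads among copies. The calls of HSP90B1, HSPA5, ALDH3A2, MCM7 and ZBTB10 were lost with any 1 of the 4 GFP libraries left out, that of HMGB2 without 3 of them taken singly (GFP-DMSO number 2 and both of GFP-ABBV-075) and that of TMBIM6 without 2 (GFP-DMSO number 1 and GFP-ABBV-075 number 2). GAPDH (96513 and 99828, then 105570.0 and 105015) and ACTB (135145 and 124740.0, then 116831 and 120404) were not called, but both were in the fit of the 4 GFP libraries alone and without the 2 HNF4G libraries of low GC content.

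Among the genes of the drug's own targets BRD2 rose and BRD3 was not called, and CDK9 of P-TEFb was not called either. HEXIM1 (chr17:45148475-45152099, GRCh38) went from 1905 and 1816 normalized counts under DMSO to 6473 and 6485 under ABBV-075, a log2 change of 1.80 ± 0.14 (adjusted p = 1.01e-04). BRD2 rose from 9939.8 and 9263 to 14441 and 13860.1 (0.56 ± 0.08), while BRD3 was not called (-0.11 ± 0.14, adjusted p = 0.599). Of 15 BET and P-TEFb genes 4 were higher and 0 lower (3 higher with any 1 GFP library left out), with a median of 0.17. SERPINI1, a serpin gene that BET inhibitors are known to induce and that the list holds as a readout (0.96 ± 0.12), and AFF4, the scaffold of the super elongation complex (0.61 ± 0.16), were the other 2. HEXIM1 and SERPINI1 are readouts of BET inhibition, so their rises say nothing about the genes of its targets. With them counted, the share of the list that was higher was 26.7%, against 14.2% over all genes. In the fit of the 4 GFP libraries alone 8 of the 15 were higher and 1 lower. The AFF4 call was lost with any 1 GFP library left out. CDK9 stood at 1363 and 1234 under DMSO and 1731 and 1876 under ABBV-075 (0.47 ± 0.16, adjusted p = 0.0541). Among 44 subunits of RNA polymerase II and Mediator 8 rose and 2 fell (3 to 5 rose and 1 fell with any 1 GFP library left out). Of these subunits 18.2% were higher, near the 14.2% over all genes, and 4.5% lower, against 19.2%. POLR2A, the catalytic subunit, rose from 8600.5 and 9306 to 17704 and 17058 (0.96 ± 0.10) and MED19 by 0.82 ± 0.10, and MED12 of the Mediator kinase module changed by -0.71 ± 0.12.

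Immediate early genes, many of them transcription factor genes that most cells switch on within minutes of a stimulus, rose in a larger share than any other list of at least 8 tested genes. Of 24 measured, 13 were higher and 1 lower (8 to 10 and 1 with any 1 GFP library left out), with a median log2 change of 0.89. FOS stood at 119 and 105 and then 399.9 and 349.5 (1.73 ± 0.17), and JUN at 1291 and 1249.6 and then 3629 and 3749 (1.54 ± 0.15). JUND (1.51 ± 0.17), the zinc finger factor EGR1 (1.32 ± 0.15), the orphan receptor NR4A3 (1.63 ± 0.25) and ZFP36, which destabilizes AU-rich mRNAs (1.24 ± 0.21), rose too. BTG2, an antiproliferative gene, was the 1 that fell (-0.63 ± 0.11). JUNB stood at 479 and 398 under DMSO and 946 and 1001 under ABBV-075 with a wide error (1.16 ± 0.57, adjusted p = 0.16).

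Promoter windows were compared for the letters they hold. RefSeq windows of the 250 bases before the start site (GRCh38.p14) matched 11888 of the 17876 genes by symbol. CCAAT, the box bound by the factor NF-Y, lay on either strand in 39.1% of the windows of genes called higher, 36.3% of those not called and 29.8% of those called lower, against 35.3% of all 11888. For the GC box GGGCGG the shares were 71.2%, 66.2% and 60.8%, against 65.8% of all. TATAAA lay in 6.6%, 5.0% and 8.1% (5.9% of all), and the E-box CACGTG, which MYC and MondoA can bind, in 8.0%, 8.7% and 9.3% (8.7% of all). TGACTCA, the AP-1 site, lay in 2.5%, 2.3% and 2.9% (2.4% of all) and the cyclic AMP response element TGACGTCA in 3.2%, 2.9% and 2.2% (2.8% of all). Of the 21 matched genes for chaperones of the endoplasmic reticulum and the unfolded protein response, 19 (90.5%) held CCAAT, the highest share among the lists searched. The share was 45.0% for immediate early genes, 34.2% for ribosome biogenesis, 30.4% for nucleotide synthesis and 28.8% for cytosolic ribosomal proteins. TGACTCA lay in 0 of the 20 immediate early windows. Whether any motif goes with the response of a list was not tested. The following windows, 5′ to 3′ on the gene's strand, are shown for genes of the groups described in the text that rose (HEXIM1, FOS, the MondoA target ARRDC4 and MANF, a secreted factor of the unfolded protein response) and for 1 that fell (the hexokinase HK2). They were chosen after their values were seen. Capitals mark the matches to any of these 6 motifs on either strand.
HEXIM1, chr17:45148225-45148474, plus strand: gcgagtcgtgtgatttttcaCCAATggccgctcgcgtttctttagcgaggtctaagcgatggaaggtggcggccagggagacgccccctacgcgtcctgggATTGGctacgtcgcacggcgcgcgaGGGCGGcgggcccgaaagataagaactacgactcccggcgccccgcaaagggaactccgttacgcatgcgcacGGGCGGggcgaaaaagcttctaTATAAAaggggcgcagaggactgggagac
FOS, chr14:75278578-75278827, plus strand: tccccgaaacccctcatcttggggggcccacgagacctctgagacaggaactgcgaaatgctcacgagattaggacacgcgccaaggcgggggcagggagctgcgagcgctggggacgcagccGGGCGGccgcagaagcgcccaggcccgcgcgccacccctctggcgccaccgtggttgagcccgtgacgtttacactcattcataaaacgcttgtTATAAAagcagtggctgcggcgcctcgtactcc
ARRDC4, chr15:97960453-97960702, plus strand: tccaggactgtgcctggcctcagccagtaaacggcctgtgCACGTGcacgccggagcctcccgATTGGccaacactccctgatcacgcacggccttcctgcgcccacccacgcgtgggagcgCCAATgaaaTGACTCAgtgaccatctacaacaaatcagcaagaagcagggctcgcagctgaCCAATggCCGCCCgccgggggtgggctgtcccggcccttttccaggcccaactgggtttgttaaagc
MANF, chr3:51385041-51385290, plus strand: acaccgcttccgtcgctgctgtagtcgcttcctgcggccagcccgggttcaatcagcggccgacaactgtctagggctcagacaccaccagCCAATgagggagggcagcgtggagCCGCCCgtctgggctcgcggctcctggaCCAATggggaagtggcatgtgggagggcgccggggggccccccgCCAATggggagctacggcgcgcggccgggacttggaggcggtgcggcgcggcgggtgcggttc
HK2, chr2:74833877-74834126, plus strand: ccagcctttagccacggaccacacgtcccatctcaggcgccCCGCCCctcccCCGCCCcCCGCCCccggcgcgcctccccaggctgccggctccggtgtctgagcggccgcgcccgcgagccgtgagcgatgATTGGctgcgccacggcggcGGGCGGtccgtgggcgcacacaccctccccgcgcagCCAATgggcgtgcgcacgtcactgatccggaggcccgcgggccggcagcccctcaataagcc
HEXIM1 and FOS hold TATAAA near the end of the window, ARRDC4 and MANF each hold CCAAT at 3 places and HK2 at 2, and ARRDC4 holds CACGTG once. A match describes the letters only and is no evidence of binding. MANF stood at 12325 and 10389 normalized counts under DMSO and 14279 and 14558 under ABBV-075 (0.35 ± 0.12), a call lost with any 1 GFP library left out.

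Genes for making ribosomes and nucleotides fell together. Of 43 genes of ribosome biogenesis, 34 fell and 0 rose (19 to 23 fell with any 1 GFP library left out, and 41 fell in a fit of the 4 GFP libraries alone), with a median log2 change of -0.68 against -0.007 over all genes. NOP16 went from 2409.7 and 2319 to 849 and 820.1 (-1.50 ± 0.10), NOP2, an rRNA methyltransferase, from 6009 and 5856 to 2825 and 2959.8 (-1.04 ± 0.09), and WDR12 of the PeBoW complex from 3879.7 and 4039 to 1829 and 1859 (-1.10 ± 0.14). Of 26 genes of nucleotide synthesis 19 fell and 0 rose (11 to 12 fell with any 1 GFP library left out), with a median of -0.56. Both arms were represented. CAD, which opens pyrimidine synthesis, changed by -1.21 ± 0.14, and CTPS2, a CTP synthase, by -1.67 ± 0.14. PFAS (-1.49 ± 0.17) and PAICS (-1.12 ± 0.11) of purine synthesis and IMPDH1 of guanine nucleotide synthesis (-1.34 ± 0.24) fell too. PAICS stood at 22125 and 23146 under DMSO and 10302 and 10579.6 under ABBV-075.

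Of 84 cytosolic ribosomal protein genes 2 rose and 3 fell, with a median of 0.004 (1 rose and at most 1 fell with any 1 GFP library left out, and 19 rose and 15 fell in the fit of the 4 GFP libraries alone), and the 3 that fell were the paralogs RPL22L1 (-0.54 ± 0.10) and RPL39L (-0.43 ± 0.12) and RPL17 (-1.04 ± 0.24), whose calls were lost in 2, 4 and 3 of the 4 omissions of a GFP library. Members of this family share sequence with many pseudogenes, so their counts are uncertain. The share of translation factors that fell, 18.4%, was close to the 19.2% over all genes. Of 38 translation factors 3 rose and 7 fell (3 and 1 to 3 with any 1 left out), of 20 aminoacyl-tRNA synthetases 1 rose and 8 fell (0 and 1 to 2 with any 1 GFP library left out), and of 76 mitochondrial ribosomal proteins 3 rose and 17 fell (6 to 9 with any 1 left out). Of 42 spliceosome genes 0 rose and 8 fell (1 to 3 with any 1 left out), a share close to the 19.2% lower over all genes.

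**Figure D3:**
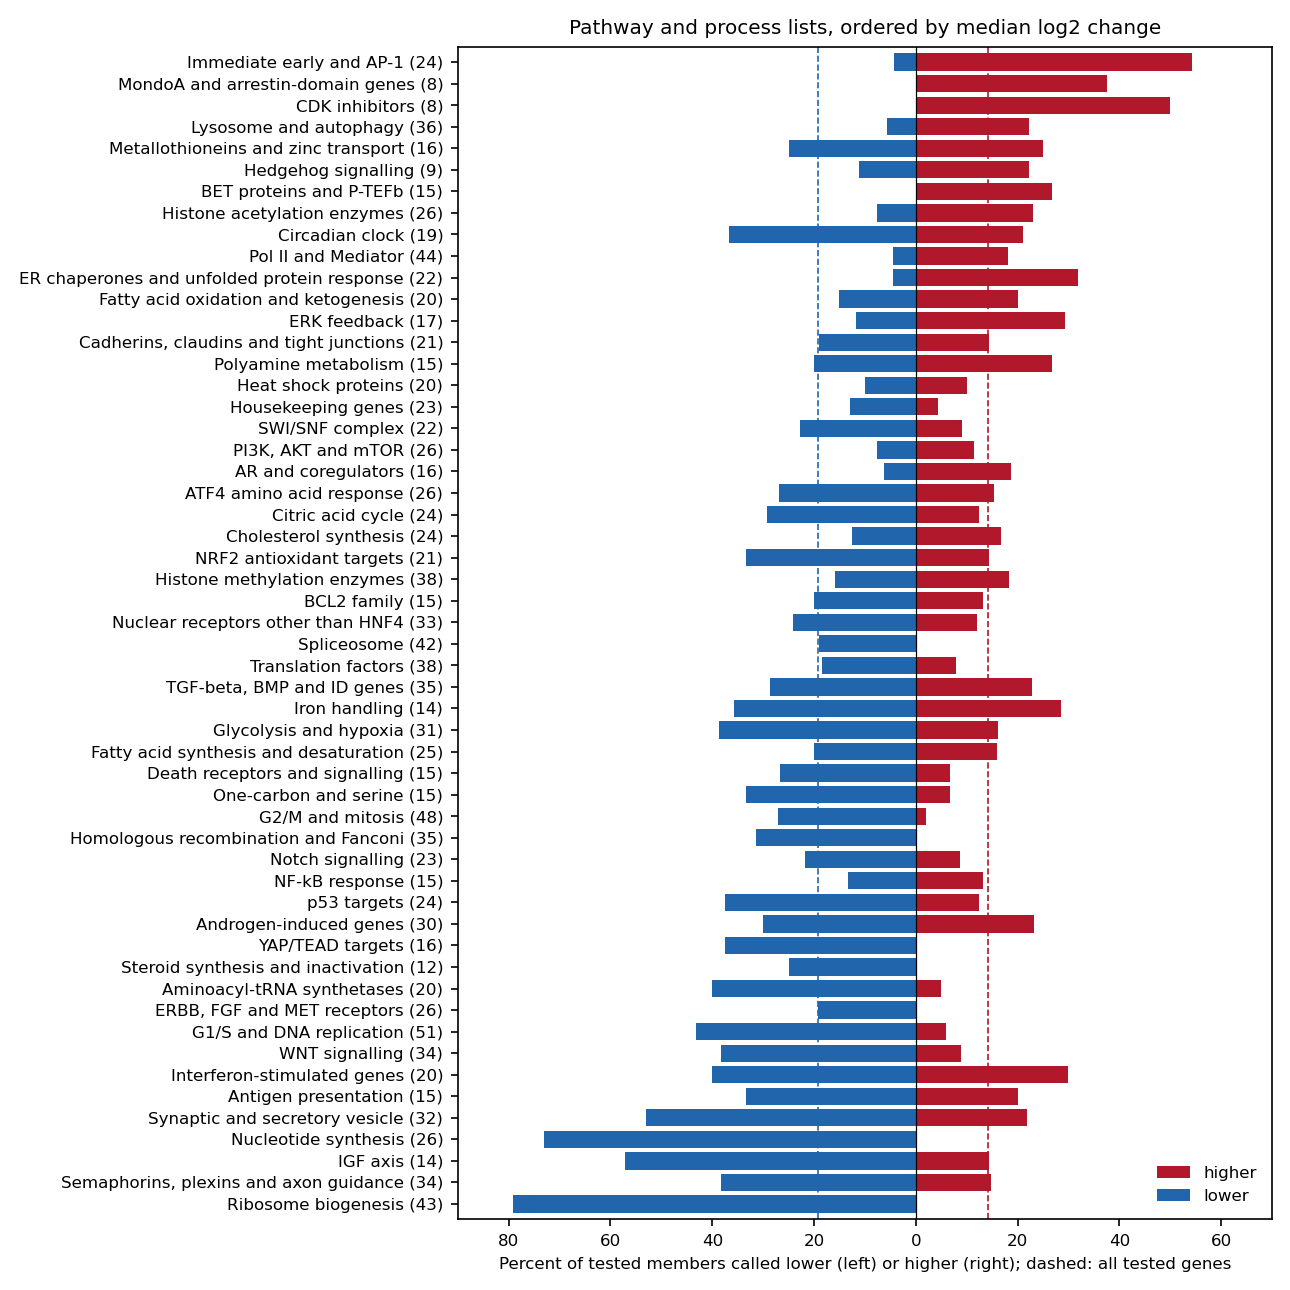
Percent of the tested members of each pathway or process list called higher (red, right) or lower (blue, left) with ABBV-075 in GFP cells, ordered by median log2 change, for the lists with at least 8 tested genes (number in brackets). Dashed lines mark the shares over all genes, 14.2% and 19.2%. Ribosome biogenesis and nucleotide synthesis lie at the falling end, and immediate early genes at the rising end.

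Glucose metabolism shifted member by member. The shares over all genes were 14.2% higher and 19.2% lower. For glycolysis and the hypoxia response they were 16.1% and 38.7%, and for the citric acid cycle 12.5% and 29.2%. Cholesterol synthesis had 16.7% higher, near the share over all genes, and 12.5% lower, below it. Of 31 genes of glycolysis and the hypoxia response, 12 fell and 5 rose (10 and 3 to 4 with any 1 GFP library left out). HK2, which phosphorylates glucose, went from 4328 and 4406 to 1544 and 1576 (-1.49 ± 0.10), PFKP, a phosphofructokinase, changed by -2.23 ± 0.21, and the abundant enolase ENO1 went from 38969 and 37786 to 17526 and 18234 (-1.10 ± 0.10). PDK1 and PDK4, kinases that shut pyruvate dehydrogenase, went opposite ways, -1.22 ± 0.14 for PDK1 and 1.54 ± 0.14 for PDK4. The mitophagy receptor BNIP3L rose (1.54 ± 0.12), as did the aldolase ALDOC (0.96 ± 0.14). TXNIP, which restrains glucose uptake and is a target of the glucose sensor MondoA, rose from 10312 and 10945 to 25642 and 25856 (1.28 ± 0.10), and its relatives ARRDC4 (from 904 and 1015 to 3685 and 3512, 1.91 ± 0.14) and ARRDC3 (1.35 ± 0.17) rose with it. These are 3 of 8 genes in that list, of which 0 fell. Of 24 genes of cholesterol synthesis 4 rose and 3 fell (2 and 1 with any 1 GFP library left out), and of 24 of the citric acid cycle 3 rose and 7 fell (0 to 1 and 0).

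Genes of the cell cycle engine fell in part, and inhibitors of cyclin-dependent kinases rose in part. The shares over all genes were 19.2% lower and 14.2% higher. For G1/S and DNA replication they were 43.1% and 5.9%, and for G2/M and mitosis 27.1% and 2.1%. For homologous recombination and the Fanconi pathway 31.4% were lower. Of 51 genes of the G1/S transition and DNA replication 22 fell and 3 rose (8 to 11 and 1 with any 1 GFP library left out), with a median of -0.33. E2F2 went from 3707 and 3738 to 1258 and 1273 (-1.55 ± 0.09), and E2F3 (-1.14 ± 0.13) and the kinase CDK6 (-0.96 ± 0.16) fell, while cyclin D1, above, was 1 of the 3 that rose. Of 48 genes of G2/M and mitosis 13 fell and 1 rose (2 to 4 and 0 with any 1 left out). Among 35 genes of homologous recombination and the Fanconi pathway 11 fell and 0 rose (4 to 5 fell with any 1 left out). Of 8 CDK inhibitor genes 4 rose and 0 fell (3 with any 1 left out). CDKN2B, which encodes p15, stood at 159.7 and 158 under DMSO and 625 and 653 under ABBV-075 (2.00 ± 0.13), CDKN2D (p19) changed by 1.20 ± 0.16 and CDKN1B (p27) by 0.50 ± 0.08. CDKN1A (p21) stood at 4521 and 4908 under DMSO and 5772 and 5721 under ABBV-075 (0.29 ± 0.15, adjusted p = 0.18), and CDKN1C at -0.38 ± 0.23, neither of them called. CDKN1A was called higher in the fit of the 4 GFP libraries alone and without the 2 HNF4G libraries of low GC content.

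Among regulators of cell death, BCL2 went from 654 and 671 to 277 and 264 (-1.29 ± 0.11), MCL1, also antiapoptotic, from 13959 and 14356 to 22445 and 22525 (0.67 ± 0.10), and BCL2L1 was not called (0.00 ± 0.14). Of 15 BCL2 family genes 2 rose and 3 fell (1 and 1 to 2 with any 1 GFP library left out), and BOK, a proapoptotic member, fell (-1.94 ± 0.39). The shares of this family lay near the 14.2% higher and 19.2% lower over all genes. Of 24 p53 targets 3 rose and 9 fell (2 and 5 to 6 with any 1 left out). These are 12.5% higher, near the share over all genes, and 37.5% lower, above it. FAS, a death receptor, went from 473 and 527 to 87.0 and 143 (-2.15 ± 0.23), and the nuclease AEN changed by -1.47 ± 0.13. TP53INP1, an autophagy and stress gene, rose (1.09 ± 0.14). Without GFP-DMSO number 1 the call of BOK was lost.

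Genes of several signalling pathways fell more often than they rose, where over all genes 19.2% fell and 14.2% rose. Of 34 WNT genes 13 fell and 3 rose (6 to 8 and 1 with any 1 GFP library left out). The ligand WNT10B went from 648 and 630.4 to 77.1 and 103 (-2.83 ± 0.20), the secreted antagonist DKK1 changed by -2.26 ± 0.15 and the R-spondin receptor LGR5 by -1.99 ± 0.15. CTNNB1, which encodes beta-catenin, stood at 0.14 ± 0.10 and was not called (adjusted p = 0.29). Of 14 genes of the insulin-like growth factor axis 8 fell and 2 rose (5 to 8 and 1 to 2 with any 1 left out). IGFBP3, a binding protein that holds IGF in plasma and tissue, went from 4023 and 3828 to 1212 and 1223 (-1.69 ± 0.09), and the secreted glycoprotein STC2 from 803 and 772 to 133 and 148 (-2.48 ± 0.12). The docking proteins split, with IRS1 at -0.73 ± 0.11 and IRS2 at 0.70 ± 0.09.

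Of 35 genes of TGF-beta and BMP signalling 8 rose and 10 fell (4 to 5 and 6 to 8 with any 1 GFP library left out). These are 22.9% higher and 28.6% lower, against 14.2% and 19.2% over all genes. For the other lists below the shares were 14.7% and 38.2% (axon guidance), 0.0% and 37.5% (YAP and TEAD) and 29.4% and 11.8% (ERK feedback). The ID genes, BMP targets that block basic helix-loop-helix factors, were all 4 higher. ID1 went from 3495 and 3239.7 to 9592 and 10024 (1.54 ± 0.27), ID2 from 9410.5 and 9212 to 18456 and 18228 (0.98 ± 0.08), ID4 changed by 1.11 ± 0.09 and ID3 by 0.88 ± 0.29, the last a call lost with any 1 GFP library left out. The effector SMAD3 (-1.21 ± 0.12), the activin subunit INHBB (-1.53 ± 0.13) and the receptor BMPR1B (-1.37 ± 0.14) fell. Of 34 semaphorin, plexin and other axon guidance genes 13 fell and 5 rose (8 to 9 and 2 to 3 with any 1 left out), PLXNA2 (-1.50 ± 0.13) and UNC5C (-1.91 ± 0.17) lower and UNC5B (1.16 ± 0.17) higher. Of 16 targets and partners of YAP and TEAD 6 fell and 0 rose, among them TEAD2, which went from 2526 and 2525 to 1016 and 963 (-1.35 ± 0.11), TEAD4 (-1.14 ± 0.17) and CCN2 (336 and 326, then 118 and 115, -1.50 ± 0.13). Of 17 ERK feedback genes 5 rose and 2 fell, with the ETS factor ETV5 higher (1.63 ± 0.12) and its relative ETV4 lower (-2.15 ± 0.25), whereas DUSP6, a common readout of ERK activity, stood at 266 and 244 under DMSO and 266 and 266 under ABBV-075 (0.06 ± 0.12, not called).

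Genes of the lysosome and of folding in the endoplasmic reticulum rose more often than they fell, and genes of the proteasome fell more often than they rose. The shares over all genes were 14.2% higher and 19.2% lower. Of 36 lysosome and autophagy genes 8 rose and 2 fell (6 to 7 and 1 with any 1 GFP library left out), with a median of 0.25. NPC2, which carries cholesterol out of the lysosome, went from 2343 and 2107 to 4308 and 4497 (0.99 ± 0.10), MAP1LC3B, the autophagosome protein LC3B, from 3608 and 3503 to 5937 and 6026 (0.75 ± 0.11), and its relative GABARAPL2 changed by 0.73 ± 0.10. The cathepsin gene CTSZ fell (-0.90 ± 0.11) and CTSB rose (0.66 ± 0.10). Of 21 vacuolar ATPase genes 8 rose and 1 fell, but with any 1 GFP library left out 0 to 2 rose. Of 22 genes of endoplasmic reticulum chaperones and the unfolded protein response 7 rose and 1 fell (2 and 0 with any 1 left out), among them PDIA4, a disulfide isomerase (28187 and 26125, then 45061 and 43805, 0.71 ± 0.08), and the stress sensor ERN1 (0.76 ± 0.11). Of 39 DNAJ cochaperones 12 rose and 5 fell (4 to 5 and 2 to 3 with any 1 left out), DNAJB4 (0.95 ± 0.16) and DNAJB1 (0.70 ± 0.09) among the higher, whereas of 20 heat shock protein genes 2 rose and 2 fell (1 and 0 with any 1 left out). Of 46 proteasome subunits 1 rose and 11 fell (0 and 2 to 3 with any 1 left out), with a median of -0.14, and of 46 ubiquitin-specific proteases, which remove ubiquitin, 4 rose and 9 fell (0 and 1 to 3). The share of ubiquitin-specific proteases that fell, 19.6%, was close to the 19.2% over all genes. The metallothioneins MT1X (159.7 and 140.4, then 520.0 and 508, 1.77 ± 0.14) and MT1E (1.65 ± 0.21), which bind zinc and copper and are near-identical copies that can share reads, rose, as did SAT1, which acetylates polyamines for export (1249 and 1242, then 3734 and 3845, 1.60 ± 0.11).

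Interferon-stimulated genes moved both ways. Of 20 measured, 8 fell and 6 rose (5 and 3 to 4 with any 1 GFP library left out). OAS3, which makes the activator of RNase L, went from 1559 and 1756 to 247 and 239 (-2.76 ± 0.12), IFITM2, which blocks viral entry and is close in sequence to IFITM3, from 968 and 879 to 185 and 182 (-2.32 ± 0.21), and the RNA sensor IFIH1 changed by -2.05 ± 0.23. Another RNA sensor, listed as DDX58, rose from 313 and 289.9 to 788 and 731 (1.33 ± 0.18).

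Of the transcription factors that mark luminal prostate cells, FOXA1 rose and HOXB13 was not called. HOXB13 stood at 10339.5 and 10916 under DMSO and 11984 and 11949.9 under ABBV-075 (0.17 ± 0.17, adjusted p = 0.469), and it was called higher in the fit of the 4 GFP libraries alone and without the 2 HNF4G libraries of low GC content. FOXA1, a pioneer factor that opens chromatin, rose from 15535 and 15185 to 21745 and 22269 (0.52 ± 0.07, adjusted p = 0.00149). Of 13 prostate luminal markers 1 rose and 4 fell (0 and 3 to 4 with any 1 GFP library left out), with a median of -0.35, and the acid phosphatase ACP3 went from 419 and 456 to 117 and 107 (-1.96 ± 0.14). Of 30 androgen-induced genes 7 rose and 9 fell (3 to 4 and 7 with any 1 GFP library left out), with a median of -0.22, and by 1 log2 unit or more 5 were lower and 0 higher. KLK3, which encodes prostate-specific antigen, went from 1711 and 1359 to 283 and 293 (-2.40 ± 0.17), and the related protease KLK2 changed by -1.68 ± 0.11 and TMPRSS2, a serine protease, by -0.97 ± 0.10, while ACSL3, a fatty acyl-CoA ligase, rose (0.90 ± 0.12). The transferrin receptor TFRC went from 19297 and 20676 to 12002 and 11716 (-0.75 ± 0.14), and ODC1, the entry enzyme of polyamine synthesis, was not called (0.19 ± 0.09) but was called higher with either HNF4G-ABBV-075 library left out, without both HNF4G libraries of low GC content and in the fit of the 4 GFP libraries.

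**Figure D4:**
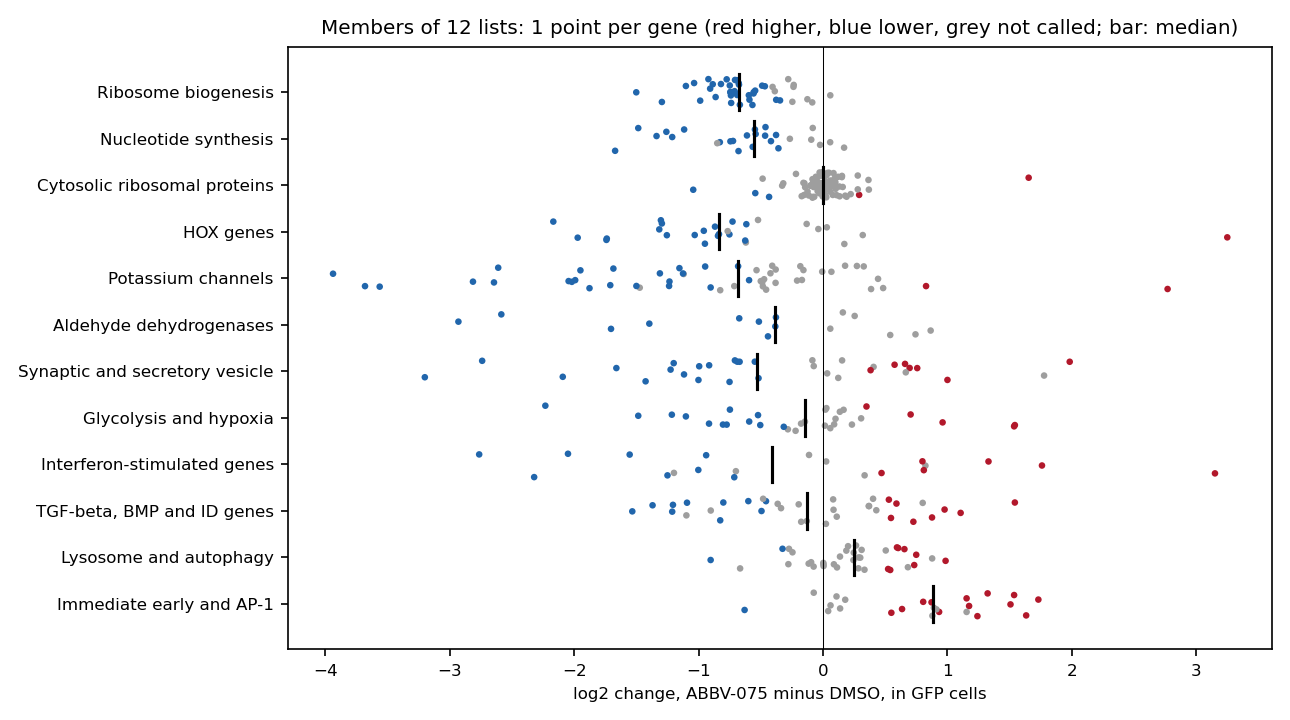
Log2 change with ABBV-075 in GFP cells (horizontal axis) of every tested member of 12 lists, 1 point per gene, red for higher, blue for lower and grey for not called, with a bar at the median. Ribosome biogenesis genes lie in a narrow band below 0 and cytosolic ribosomal proteins around 0, while potassium channels, interferon-stimulated and synaptic genes spread over several log2 units.

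Genes of developmental clusters fell more often than they rose, against 19.2% lower and 14.2% higher over all genes. Of 27 HOX genes, the homeodomain factors that set position along the body axis, 18 fell and 1 rose (10 to 14 and at most 1 with any 1 GFP library left out), with a median log2 change of -0.84. The falls were spread over the 3 clusters with tested members, with 6 of 10 in HOXA, 6 of 9 in HOXB and 6 of 8 in HOXC. HOXB9 went from 286 and 257 to 78.2 and 83.0 (-1.74 ± 0.13), HOXC11 from 101 and 99.0 to 26.4 and 23.1 (-1.97 ± 0.28), and HOXA13, which specifies the distal urogenital tract, from 262 and 227 to 105 and 93.4 (-1.29 ± 0.16). Of 59 protocadherins, neuronal adhesion molecules encoded in tandem arrays, 25 fell and 2 rose (16 to 22 and at most 1 with any 1 left out). In the beta array 10 of 15 fell and 0 rose, with a median of -1.09, in the alpha array 9 of 15 fell and 1 rose, and in the gamma array 3 of 17 fell and 0 rose. Members of these arrays share sequence, and those of the alpha and gamma arrays share exons, so their counts are uncertain.

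Genes of excitable cells also went down more often than up, against 19.2% lower and 14.2% higher over all genes. Of 51 potassium channel genes 23 fell and 2 rose (12 to 15 and 2 with any 1 GFP library left out), with a median of -0.68. KCNMA1, the large-conductance calcium-activated channel, went from 1659 and 1813 to 419 and 436 (-2.02 ± 0.15). Of 32 genes of synaptic and secretory vesicles 17 fell and 7 rose (12 to 14 and 3 to 6 with any 1 left out). CPLX2, a clamp of vesicle fusion, went from 1607 and 1604 to 183 and 165 (-3.20 ± 0.14) and SNAP25, a fusion protein, from 856 and 869.8 to 458 and 405 (adjusted p = 9.77e-04). Of 17 tubulin genes 8 fell and 3 rose (3 to 4 and 2 with any 1 left out), with TUBB2B, a neuronal beta-tubulin, at -2.14 ± 0.20.

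Genes of detoxifying enzyme families also fell more often than they rose, where over all genes 19.2% fell and 14.2% rose. For the cytochromes P450 below both shares lay above these, with 27.3% lower and 18.2% higher. Of 9 UDP-glucuronosyltransferases 5 fell and 0 rose (4 to 5 with any 1 GFP library left out), with a median of -2.29, although these are near-identical paralogs whose reads can be split among them. Of 15 aldehyde dehydrogenases 9 fell and 0 rose (3 to 5 with any 1 left out). The mitochondrial ALDH1B1 went from 2158 and 2259 to 361 and 373 (-2.59 ± 0.10). Of 14 glutathione S-transferases 6 fell and 2 rose (5 to 7 and 1 with any 1 left out), and of 22 cytochromes P450 6 fell and 4 rose (3 to 4 and 2). Of 16 S100 and annexin genes, calcium-binding proteins of the cell cortex, 11 fell and 1 rose (5 to 7 and 0 with any 1 left out), with S100A11 going from 5855 and 5611 to 3095 and 3283 (-0.85 ± 0.13). Of 255 solute carriers 79 fell and 34 rose (49 to 53 and 14 to 16 with any 1 left out). Of 28 collagens 11 fell and 5 rose (5 to 9 and 2 to 3 with any 1 left out), with COL9A3 at -2.40 ± 0.31. By 1 log2 unit or more 9 collagens (32.14%) fell and 4 (14.29%) rose, against 9.54% and 4.59% over all genes. The protease gene ADAMTS1 fell from 3239 and 3141 to 411 and 424 (-2.93 ± 0.11).

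Transporters and surface receptors included several deep falls. SLC17A4, an organic anion transporter gene, went from 65.8 and 72.7 to 1.10 and 0, at most 1 read in a library, and the GABA transporter SLC6A11 changed by -3.21 ± 0.32. Against these, the amino acid transporter SLC38A2 rose from 23241 and 22795 to 61669 and 59058 (1.39 ± 0.13). Of 33 ABC transporters 10 fell and 4 rose (7 to 8 and 1 to 2 with any 1 GFP library left out), with the drug and cyclic nucleotide exporter ABCC4 going from 302 and 359.6 to 44.1 and 49.6 (-2.79 ± 0.18). Of 46 orphan and adhesion G protein-coupled receptors 18 fell and 3 rose (12 to 13 and 1 with any 1 left out), ADGRG1 among the lower (-2.73 ± 0.32). Of 21 integrins 7 fell and 0 rose, ITGB8 by the most among those with a mean of at least 50 (-1.47 ± 0.24). Of 26 genes of ERBB, FGF and MET receptors 5 fell, 19.2% as over all genes, and 0 rose (1 to 2 fell with any 1 left out), and MET, the receptor of hepatocyte growth factor, went from 447 and 563 to 247 and 236 (-1.05 ± 0.17).

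Genes for storing and burning lipid, for iron and for antigen presentation were divided, where over all genes 14.2% rose and 19.2% fell. PLIN2, the coat of lipid droplets, went from 252 and 224 to 54.0 and 46.1 (-2.23 ± 0.16), and DGAT2, the last enzyme of triglyceride synthesis, changed by -2.18 ± 0.13, while the acyl-CoA synthetase ACSL1 rose (0.79 ± 0.13). Of 25 genes of fatty acid synthesis 4 rose and 5 fell (2 to 3 and 3 to 4 with any 1 GFP library left out), and of 20 of fatty acid oxidation 4 rose and 3 fell (2 to 3 and 3). Both fatty acid lists lay near the shares over all genes. Of 14 iron genes 4 rose and 5 fell (2 and 4 with any 1 GFP library left out). These are 28.6% higher and 35.7% lower, both above the shares over all genes. The ferritin light chain gene FTL went from 17763 and 18104 to 34536 and 35492 (0.96 ± 0.15), whereas the ferrireductase STEAP3 (-2.27 ± 0.15) and CP, ceruloplasmin (-1.92 ± 0.26), fell. FTL has processed pseudogenes, so its counts are uncertain. Of 15 genes of antigen presentation 3 rose and 5 fell (1 to 2 and 4 with any 1 left out), and both shares lay above those over all genes. The peptide transporter genes TAP1 (-0.80 ± 0.11) and TAP2 (465 and 444, then 89.2 and 94.6, -2.29 ± 0.13) fell, and B2M, the light chain of class I molecules, rose from 8672 and 8664 to 13693 and 14368 (0.69 ± 0.10).

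Among other transcription factor and chromatin genes, NR1H4, the bile acid receptor, went from 141 and 99.0 to 12.1 and 13.8 (-3.10 ± 0.23), and the orphan receptors ESRRG (-1.92 ± 0.26) and NR5A2 (-1.44 ± 0.19) fell too. Over all genes 14.2% rose and 19.2% fell. Nuclear receptors, with 12.1% and 24.2%, and histone methylation enzymes, with 18.4% and 15.8%, lay near these shares. Histone acetylation enzymes had 23.1% higher and 7.7% lower. Of 33 nuclear receptors 8 fell and 4 rose (6 to 8 and 1 to 3 with any 1 GFP library left out). KLF5, an epithelial Krüppel-like factor, rose from 1066 and 1064 to 1873 and 1887 (0.82 ± 0.11), and KLF12 (-1.30 ± 0.18) and KLF11 (-0.81 ± 0.13) fell. Of 26 histone acetylation enzymes 6 rose and 2 fell (0 to 1 and 1 with any 1 left out), with the acetyltransferase KAT2A at -1.25 ± 0.20. Of 38 histone methylation enzymes 7 rose and 6 fell (1 to 2 and 1 with any 1 left out), with the demethylase KDM5B at 0.81 ± 0.14 and the arginine methyltransferase PRMT5 at -0.94 ± 0.11. The neuroendocrine marker list had 5 of 12 lower and 0 higher. DDC, the aromatic amino acid decarboxylase, went from 651 and 637 to 63.9 and 77.3 (-3.18 ± 0.14). Another set of 7 neuroendocrine markers, without DDC, had 2 of 5 tested genes lower and 0 higher. Its summed level was 14518 and 14081 under DMSO and 13688 and 14088 under ABBV-075, so it changed little as a sum.

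Zinc finger genes of the ZNF series leaned the other way, and those on chromosome 19 most. Of 469, 91 rose and 54 fell (29 to 49 and 25 to 29 with any 1 GFP library left out). On chromosome 19, which carries large tandem arrays of KRAB zinc finger repressors, 62 of 237 rose and 13 fell, with a median of 0.24, and on the other chromosomes 29 of 232 rose and 41 fell, with a median of 0.019. These are 26.2% higher and 5.5% lower on chromosome 19, and 12.5% and 17.7% on the others, the latter near the shares over all genes. Over all 1253 genes tested on chromosome 19, 13.9% rose and 11.5% fell. Tandem ZNF genes are similar in sequence, so their counts may be split among them. Of 23 housekeeping genes 1 rose and 3 fell (1 and 1 to 2 with any 1 GFP library left out), but in the fit of the 4 GFP libraries alone 11 rose and 8 fell. Of 80 nuclear genes of the respiratory chain 3 rose and 11 fell (0 and 2 to 4 with any 1 left out), and 17 and 36 in that fit. Of 13 mitochondrially encoded transcripts 2 rose and 0 fell (0 to 4 rose with any 1 left out), with a median of 0.61. In the fit of the 4 GFP libraries alone 12 of these 13 rose and 0 fell. MT-ND6 stood at 9988 and 5311 under DMSO and 13649.7 and 14641 under ABBV-075, and the gap between the DMSO libraries was wider than that between the higher of them and the lower ABBV-075 library. Its call was lost in 3 of the 4 omissions of a GFP library.

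**Figure D5:**
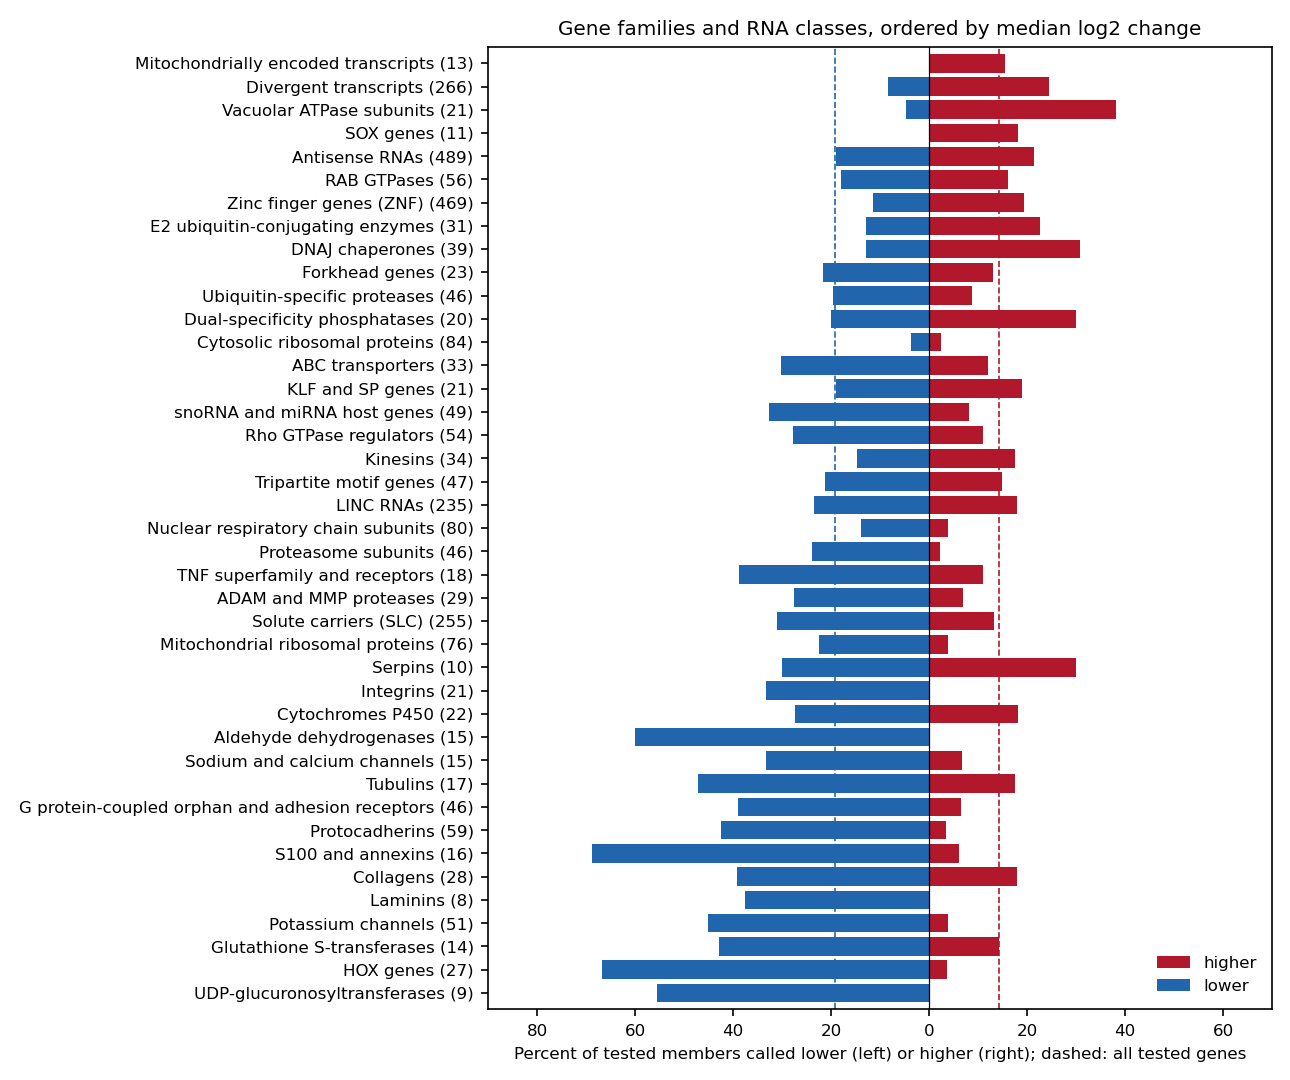
Percent of the tested members of each gene family or RNA class called higher (red, right) or lower (blue, left) with ABBV-075 in GFP cells, ordered by median log2 change, for classes with at least 8 tested genes (number in brackets). Dashed lines mark the shares over all genes, 14.2% and 19.2%. HOX genes, aldehyde dehydrogenases and S100 and annexin genes lie far to the left of the dashed line, and vacuolar ATPase genes and DNAJ cochaperones to the right.

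The same treatment in HNF4G cells, whose libraries are separate from these, moved nearly every such gene in the same direction. Of the 2534 genes higher in GFP cells 2512 had a positive log2 change in HNF4G cells, with a median of 0.64, and of the 3432 lower genes 3407 had a negative one, with a median of -0.87. The genes were selected by their change in GFP cells, so these medians are a description and were not compared by a test. PEG10 changed by 2.48 there, HEXIM1 by 1.90, TXNIP by 1.46, CDKN2B by 2.02, NOP16 by -1.35, KCNMA1 by -1.97 and CPLX2 by -2.66. The difference between the lines in the response was called for 2 of 17876 genes (0.0112%, limma interaction, adjusted p under 0.05), the transgene's own HNF4G and the brush border gene VIL1. The call of VIL1 was lost in 6 of the 8 omissions of 1 library, those of any GFP or HNF4G-DMSO library, with adjusted p between 0.0759 and 0.37, and also with a replicate block (0.174) and with no intensity trend (0.137). At an unadjusted p under 0.05 it numbered 452 genes, edgeR called 2 and DESeq2 10, and without the 2 HNF4G libraries of low GC content limma called 364.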

How the data were processed

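Poly-A RNA-seq was run on 8 libraries of 22Rv1 cells, 2 in each of 4 groups defined by transgene (GFP or HNF4G) and agent (DMSO or 25 nM ABBV-075, 24 h). The submitters' processing notes name STAR 2.6 and hg38, while the study's methods name another STAR version. Not given in the sources used here were the counter, the annotation release, the use of strand and the origin of the size factors. The deposited values are a signal in normalized counts, which the authors made by dividing each library's gene counts by 1 size factor. Every value was a whole multiple of the value of 1 read in its library (100.0%, tolerance 0.01), so reads could be recovered, 31508275 to 40262678 per library, and their number limits the precision of low genes.

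Genes whose mean over the 8 libraries reached 10 were tested with limma 3.58.1 (R 4.3.3) on log2(normalized count + 1) with 4 group means, an intensity trend and Benjamini-Hochberg adjustment over all 17876 genes, with a threshold of 0.05. A log2 change on this scale understates that of low genes. Symbols come from the table, and gene type, length and GC content from GENCODE 44, which matched 17861 identifiers. The code was first tested on simulated data.

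The genes, the 59 lists, the 42 families and the tests were chosen with earlier results of these data known. Families matched by symbol were restricted to protein-coding genes, and RNA classes to long non-coding RNA genes, after the matched symbols were seen. Named genes are the 12 largest rises and falls among called coding genes whose mean reached 100 and whose groups did not overlap (11 HNF signature genes, MYC and histone genes passed over), the 8 most abundant called genes in each direction, up to 3 members each way of a list or family with a mean of at least 50 and members whose role the text needs, and a set of 23 genes. Lists are given by counts and medians with no test of their own. Alternatives were other pseudocounts (0.5 and 8), filters (none and 100), scalings, a replicate block, fits without libraries, and edgeR 4.0.16 and DESeq2 1.42.0 on the recovered reads. Some genes are not reported here.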

Additional observations from a re-analysis of the deposited data

Results flagged for a closer look

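The response to ABBV-075 differed between the GFP and HNF4G lines, by the limma interaction term at an adjusted p under 0.05, for 2 genes. VIL1, which encodes the brush border protein villin, stood at 3181 and 2883 normalized counts in GFP-DMSO and 589 and 593 in GFP-ABBV-075, a log2 change of -2.35 ± 0.10, against -0.64 in HNF4G cells. The difference was 1.71 ± 0.14 (adjusted p = 0.0179). It was 1.64 without GFP-DMSO number 1 (adjusted p = 0.37), 1.78 without GFP-DMSO number 2 (0.218), 1.71 and 1.72 without GFP-ABBV-075 number 1 and 2 (0.269 and 0.224) and 1.75 and 1.67 without HNF4G-DMSO number 1 and 2 (0.0759 and 0.121), so the call was lost in each of these omissions. It was also lost with a replicate block (adjusted p = 0.174) and with no intensity trend (0.137). HNF4G itself changed by -2.30 in GFP cells and by 1.81 in HNF4G cells, a difference of 4.11 ± 0.21 (adjusted p = 8.14e-04). In the HNF4G line most of this gene's reads can come from the transgene, which a viral promoter drives, and the endogenous and transgenic transcripts cannot be told apart in these counts.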

How the results depend on the processing

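The number of genes called moved with the libraries that set the spread. It was 5164 higher and 5586 lower in the 4 GFP libraries alone, and 5151 and 5586 without the 2 HNF4G libraries of low GC content. With any 1 of the 8 libraries left out it ranged from 978 to 3316 higher and from 1875 to 4153 lower, the lowest values without a GFP library. Genes whose response differed between the lines numbered 364 without those 2 HNF4G libraries, 10 by DESeq2, 1 with no intensity trend and 1 with a replicate block (VIL1 was the gene lost in both) and between 1 and 3 with any 1 library left out, against 2 as reported. The causes were not tested. With a replicate block 1894 genes were higher and 2814 lower. Replicate numbers did not pair the GFP libraries, whose deviations from their group means correlated at -0.053 between same-numbered libraries.

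DESeq2 called 2037 higher and 2800 lower, and edgeR 2607 and 3316. Quantile normalization gave 3028 and 3060, so that 49.7% of calls were higher against 42.5% as reported, and it moved the median of all genes from -0.007 to 0.052. With trimmed-mean rescaling the median was -0.034. Among the genes named by the rule the sign changed for 3, none of them called with 8 libraries. BCL2L1 stood at -0.025 with trimmed-mean rescaling and between -0.049 and 0.053 with any 1 library left out. GAPDH, which was called in the 4 GFP libraries alone and without the 2 HNF4G libraries of low GC content, stood at -0.125 after quantile normalization, and DUSP6 between -0.001 and 0.121 with any 1 library left out. With 2 libraries per group, changes of low genes were measured coarsely, and a gene not called is not shown to be unchanged.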
